A study of Homo sapiens with 4 samples.

Results

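Cohesin loops at 5 signalling genes were described across 4 libraries of GM12878, a human B lymphoblastoid line transformed by Epstein-Barr virus. The genes are STIM1, CAMK1D, GRB2, RHOH and RGL1. They were chosen by their summed loop counts in these same data, which stood lower in each drug library than in its vehicle, so the lower counts are a description and not a finding. A loop counted for a gene when one of its 5 kb anchors lay on the RefSeq gene body, which gave 83 of the 41846 listed loops. Of these, 23 were listed in all 4 libraries, out of 9529 such loops in the whole study, and they are called shared loops here.

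The libraries were made by HiChIP, in which chromatin is proximity-ligated and then immunoprecipitated, here with an antibody to SMC1. The APH group had 18 h in 0.4 µM aphidicolin, an inhibitor of replicative DNA polymerases, and its vehicle group had dimethyl sulfoxide (DMSO). The HU group had 18 h in 0.2 mM hydroxyurea, which blocks ribonucleotide reductase, and its vehicle group had water (H2O). All 4 groups used the same line under the same culture conditions, and each group holds 1 library. No difference has a replicate check, therefore, and each ratio compares libraries.

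SMC1 is a subunit of the cohesin ring, which extrudes loops of chromatin and holds them where CTCF is bound. Such loops can bring a promoter near distant parts of its own gene or of the surrounding region. The 5 genes encode parts of the path that leads from a surface receptor to calcium and small GTPase signals. STIM1 is the calcium sensor of the endoplasmic reticulum that opens ORAI channels when the store empties, and CAMK1D is a kinase switched on by calcium and calmodulin. GRB2 is the adaptor that ties phosphorylated receptors to the RAS exchange factor SOS, and RGL1 is an exchange factor that links RAS to RAL. RHOH is a small GTP-binding protein without GTPase activity, made in blood cells and needed for T cell receptor signalling. Of the 5, only RHOH is largely limited to blood cells, and the others are known from many tissues.

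The deposited lists held 27395 loops in APH, 17660 in DMSO, 21448 in HU and 22446 in H2O. The total read depth is unknown, because only called loops are listed, and a pair of bins missing from a list has no measured value. Each library was scaled by its contacts in shared loops, which numbered 376948 in APH, 300320 in DMSO, 322048 in HU and 325634 in H2O. All ratios are therefore relative to shared loops. Scaling by all listed contacts in their place moves every log2 ratio by -0.38 in APH over DMSO, 0.05 in HU over H2O and -0.24 in H2O over DMSO. B cell marker genes carried a listed loop at 9 of 10 in APH, 8 in DMSO, 8 in HU and 9 in H2O, and CD79B, a subunit of the B cell receptor, had none in any. T cell markers did so at 5 of 8 in APH, 2 in DMSO, 2 in HU and 4 in H2O, and myeloid markers at 3 of 6, 2, 3 and 1 in the same order. A loop on a gene is not expression, so these counts do not settle the cell type. The sample titles name another lymphoblastoid line, whereas the other labels give GM12878.

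Promoters that lie in the anchor of a listed loop are shown for 4 of the genes, because they place a start of the gene inside a measured contact. Each sequence below is from RefSeq (GRCh38.p14), runs 5′ to 3′ in the direction of transcription and covers 250 bases before to 50 after a transcription start. Capitals mark matches to 3 motifs searched on both strands, the GC box GGGCGG, the ETS core CGGAAG and the YY1 motif AANATGGC, with overlapping matches counted separately. The stretches are chr11:3855414-3855713 on the plus strand for STIM1, chr17:75405629-75405928 on the minus strand for GRB2, chr4:40190830-40191129 on the plus strand for RHOH and chr1:183804870-183805169 on the plus strand for an internal start of RGL1.
STIM1: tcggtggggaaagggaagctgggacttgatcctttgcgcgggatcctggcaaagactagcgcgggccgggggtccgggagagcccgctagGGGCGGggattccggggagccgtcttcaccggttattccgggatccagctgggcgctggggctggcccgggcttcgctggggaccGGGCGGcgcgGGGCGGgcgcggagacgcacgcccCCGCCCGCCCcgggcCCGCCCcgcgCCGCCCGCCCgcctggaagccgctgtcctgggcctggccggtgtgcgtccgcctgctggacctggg
GRB2: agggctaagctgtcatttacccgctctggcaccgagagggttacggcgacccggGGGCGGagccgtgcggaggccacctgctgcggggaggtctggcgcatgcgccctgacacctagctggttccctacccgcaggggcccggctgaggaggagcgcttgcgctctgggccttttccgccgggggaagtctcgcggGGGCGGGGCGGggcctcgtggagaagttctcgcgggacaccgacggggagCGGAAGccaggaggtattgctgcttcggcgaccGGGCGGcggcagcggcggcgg
RHOH: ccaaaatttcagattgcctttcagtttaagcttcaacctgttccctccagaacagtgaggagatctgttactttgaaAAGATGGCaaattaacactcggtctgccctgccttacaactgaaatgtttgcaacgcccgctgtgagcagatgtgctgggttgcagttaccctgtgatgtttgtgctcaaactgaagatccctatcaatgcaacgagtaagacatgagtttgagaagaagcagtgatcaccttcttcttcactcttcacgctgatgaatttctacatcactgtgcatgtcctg
RGL1: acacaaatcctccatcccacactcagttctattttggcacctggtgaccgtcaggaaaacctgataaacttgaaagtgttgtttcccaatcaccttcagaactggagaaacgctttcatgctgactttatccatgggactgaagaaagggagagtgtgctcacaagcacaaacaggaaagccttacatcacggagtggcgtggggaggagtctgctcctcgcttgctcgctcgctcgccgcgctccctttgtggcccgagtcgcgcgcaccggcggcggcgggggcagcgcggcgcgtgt

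The STIM1 stretch held 8 GC boxes and lay in a bin that anchored 7 listed loops, 1 of them shared. The GRB2 stretch held 4 GC boxes and 1 ETS core, in a bin with 4 listed loops, 2 of them shared. The RHOH stretch held 1 YY1 match and no GC box, and its bin anchored 1 loop, listed in H2O only. The RGL1 stretch held none of these motifs, and its bin anchored 5 listed loops, none of them shared. STIM1 and RHOH have 4 starts each in the promoter table and RGL1 has 2, of which 1 per gene is shown. The other STIM1 stretches held 0, 2 and 9 GC boxes, and the stretch with 2 also held 1 ETS core. The other RGL1 stretch, at the gene start chr1:183636109, held 1 GC box and neither other motif. No listed loop had an anchor on its bin. Another RHOH start in the same bin held 1 GC box and no YY1 match. The RHOH start at chr4:40197031 lay in another bin, with a loop listed in HU and H2O. Of all 35116 promoters in the table, 45.0% held a GC box, 19.5% the ETS core and 6.58% the YY1 motif. The core of the CTCF motif, searched as CCA, any 2 bases, AG, any 2 bases and GGC, was found in 2.41% of all promoters and in none of the 12 RefSeq promoters of the 5 genes, which says only that these letters are not in these windows. No listed loop had an anchor on the bin of the CAMK1D promoter in that table. That promoter has its start at chr10:12388982, inside the gene body, which begins at 12349547. The bin where the body begins, chr10:12345001-12350000, anchored a loop listed in H2O only, with 12 counts.

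The geometry of the loops differed from gene to gene. Shared loops of the 5 genes had a median span of 220 kb, against 115 kb for all shared loops. STIM1 and RGL1 were spanned almost end to end, CAMK1D was reached from upstream of its start, and RHOH was joined to a place beyond its end. In 39 of the 83 listed loops, and in 9 of the 23 shared ones, both anchors lay on the gene itself. For CAMK1D none of the 3 shared loops had both anchors on the gene. The map of listed loops shows these layouts drawn along each gene.

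**Figure D1:**
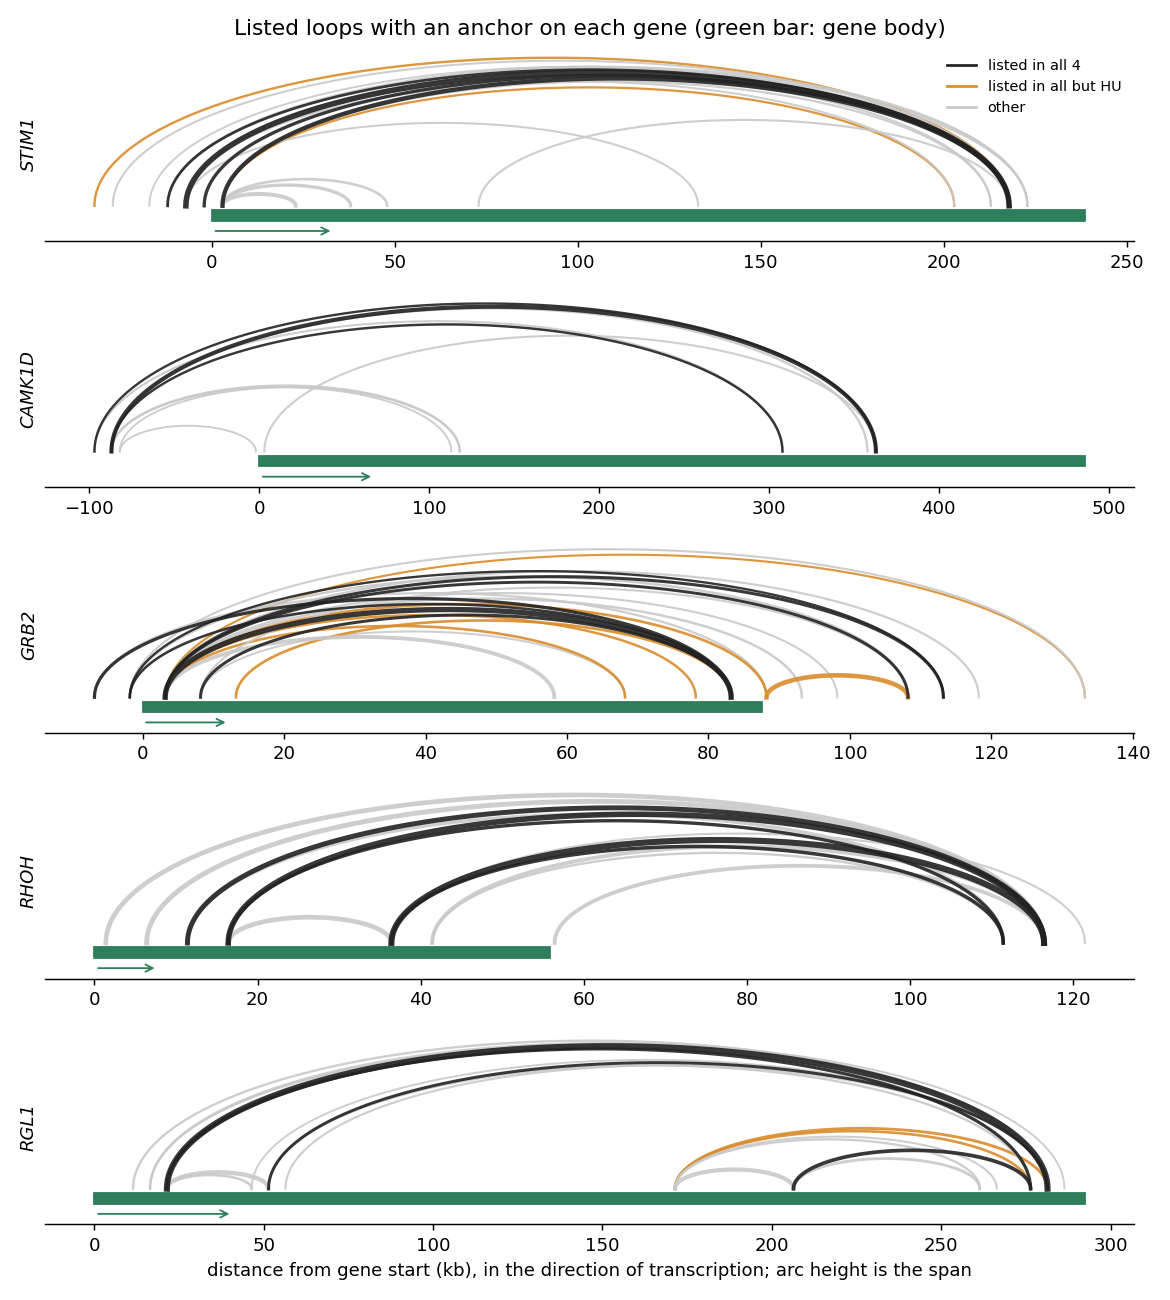
Listed loops of each gene, drawn as arcs between anchor centres against the distance from the gene start in kb, in the direction of transcription, with the gene body as a green bar. Black arcs are the 23 shared loops, orange arcs the 10 listed in all libraries but HU and grey arcs the remaining loops, and a wider line stands for a higher mean count. STIM1 loops meet at 218 kb and RHOH loops at 111 and 116 kb.

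Summed over shared loops, every one of the 5 genes had lower scaled levels in APH and HU than in either vehicle. This order held for 26.2% of the 2380 genes with enough counts in both drug contrasts, meaning at least 100 counts in the 2 libraries of each contrast together. The 95% exact interval of the ratio lay below 1 for 5 of 5 genes in APH over DMSO, where 5.16% of 2520 genes did so, and for 5 of 5 in HU over H2O, where 8.24% of 2452 did so. It lay below 1 in both contrasts for 1.43% of genes. These counts follow from how the genes were chosen, and nothing is read from them. Every interval given here covers counting error only, and it may be too narrow if PCR copies of 1 molecule remain among the counts, which was not tested. The plot of summed contacts shows all 20 levels.

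**Figure D2:**
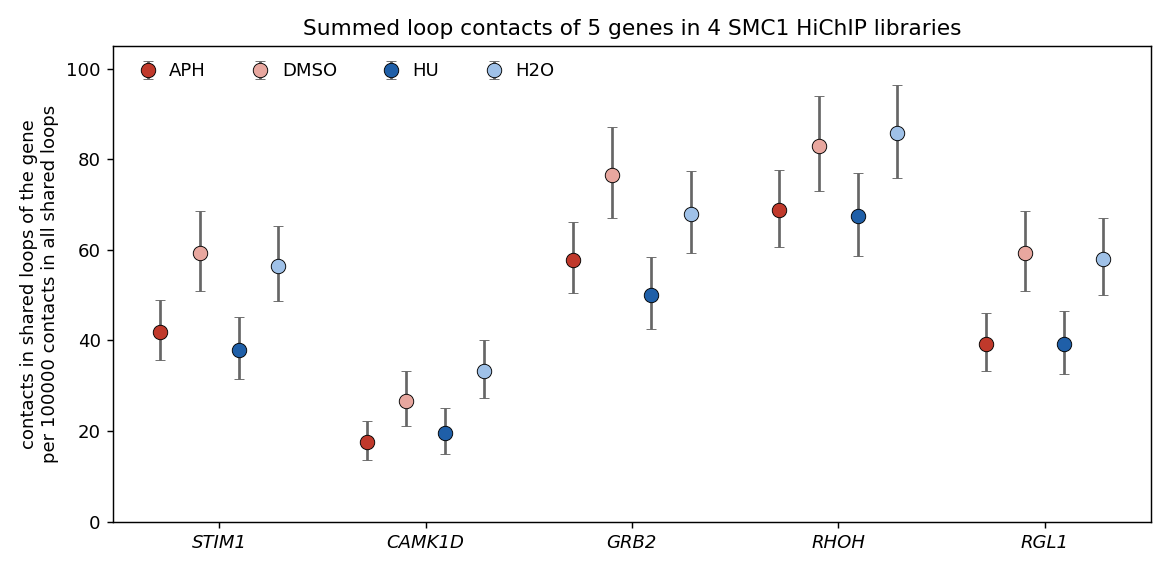
Contacts in the shared loops of each gene per 100000 contacts in all shared loops, for the libraries APH, DMSO, HU and H2O. Points are single libraries and bars are 95% exact Poisson intervals. Only at RGL1 do both drug intervals lie wholly below both vehicle intervals.

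STIM1, the calcium sensor, lies on chromosome 11 (3854604 to 4093210, plus strand, hg38). All 4 of its shared loops run from the bin chr11:4070001-4075000 inside the gene, 218 kb from the start and near its 3′ end, to neighbouring bins around the start. Their summed counts were 158 in APH against 178 in DMSO, and 122 in HU against 184 in H2O. Scaled, these are 41.9 contacts per 100000 in APH against 59.3 in DMSO, and 37.9 in HU against 56.5 in H2O. The log2 ratio was -0.50 (-0.82 to -0.18) for APH over DMSO and -0.58 (-0.92 to -0.24) for HU over H2O. The vehicles differed by less, at -0.07 (-0.37 to 0.24) for H2O over DMSO. Both drug libraries were thus low and both vehicles high, although the Poisson intervals of the APH and H2O levels still met, at an upper bound of 49.0 in APH and a lower bound of 48.6 in H2O.

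Each of the 4 STIM1 loops had both drug libraries below both vehicles. The strongest joined the hub to chr11:3845001-3850000, upstream of the gene start. It had 53 counts in APH against 64 in DMSO, and 55 in HU against 77 in H2O. Its log2 ratios were -0.60 (-1.15 to -0.05) with APH and -0.47 (-0.996 to 0.05) with HU. The loop to the bin of the promoter shown above had 48 counts in APH against 53 in DMSO, and 31 in HU against 45 in H2O, and both intervals included 1. The farthest upstream partner, chr11:3840001-3845000, lies on RHOG, which encodes a small GTPase of the cytoskeleton. That loop had 20 counts in APH against 27 in DMSO, and 16 in HU against 29 in H2O. It is also the only shared loop of RHOG, so the values of these genes are not independent.

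APH also listed short STIM1 loops that no other library listed. They ran from the promoter bin to chr11:3875001-3880000 with 39 counts, to chr11:3890001-3895000 with 31 and to chr11:3900001-3905000 with 21. The first of these spans 20 kb, and its count was 2.01 times the expected one, where 2.00 times is the lowest ratio of any listed loop. With all listed loops of STIM1 summed, APH had 319 counts over 11 loops against 274 over 11 in DMSO, and the log2 ratio was -0.11 (-0.35 to 0.13). HU had 177 counts over 8 loops against 273 over 10 in H2O. A loop missing from a list adds nothing to such sums, so they mix listing with counts.

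CAMK1D, the calmodulin-activated kinase gene, lies on chromosome 10 (12349547 to 12835545, plus strand). Its 3 shared loops span 395 to 460 kb and reach from upstream of the gene to bins 308 and 363 kb inside it. They summed to 66 counts in APH against 80 in DMSO, and 63 in HU against 108 in H2O. The levels were 17.5 contacts per 100000 in APH against 26.6 in DMSO, and 19.6 in HU against 33.2 in H2O, the lowest of the 5 genes in every library. The log2 ratios were -0.61 (-1.10 to -0.12) with APH and -0.76 (-1.23 to -0.30) with HU. H2O itself stood above DMSO at 0.32 (-0.11 to 0.75), so the value with HU rests partly on which vehicle is used. Against DMSO, HU gave -0.45 (-0.95 to 0.05), so that 4 of the 5 genes had an interval below 1 in HU over DMSO, beside 7.02% of all genes.

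The loop with most counts at CAMK1D joined chr10:12260001-12265000 to chr10:12710001-12715000. It had 36 counts in APH against 41 in DMSO, and 30 in HU against 62 in H2O, and the log2 ratio with HU was -1.03 (-1.71 to -0.38). Without it the HU value was -0.46, with an interval that included 1. Another loop reached chr10:12250001-12255000 on CDC123, which encodes a factor needed to assemble the translation initiation factor eIF2. It had 16 counts in APH against 22 in DMSO, and 15 in HU against 19 in H2O. The third joined chr10:12260001-12265000 to chr10:12655001-12660000 and had 14 counts in APH against 17 in DMSO, and 18 in HU against 27 in H2O.

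GRB2, the adaptor, lies on chromosome 17 (75318076 to 75405678, minus strand), so that its start is at the higher coordinate. Its 7 shared loops, the most of any of the genes, join the region of the start to the last part of the gene and to bins beyond its end. They summed to 218 counts in APH against 230 in DMSO, and 161 in HU against 221 in H2O. The levels were 57.8 contacts per 100000 in APH against 76.6 in DMSO, and 49.99 in HU against 67.9 in H2O. The log2 ratios were -0.41 (-0.68 to -0.13) with APH and -0.44 (-0.74 to -0.14) with HU, while the vehicles differed by -0.17 (-0.45 to 0.10). Against H2O in place of DMSO the APH value was -0.23 (-0.51 to 0.05), so that 4 of the 5 genes had an interval below 1 in APH over H2O, beside 6.73% of all genes. GRB2 was thus lowest in HU, and its APH level lay below both vehicles but with Poisson intervals that overlapped that of H2O.

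The loops of GRB2 were less alike than those of STIM1. The strongest, between chr17:75320001-75325000 and chr17:75400001-75405000, had 66 counts in APH against 73 in DMSO, and 37 in HU against 59 in H2O, with log2 ratios of -0.47 (-0.98 to 0.03) and -0.66 (-1.29 to -0.04). The loop between chr17:75290001-75295000 and the promoter bin had 15 counts in APH against 26 in DMSO, and 14 in HU against 16 in H2O. With APH it gave -1.12 (-2.14 to -0.15), but H2O was also far below DMSO there, at -0.82 (-1.81 to 0.14). The loop to chr17:75410001-75415000, upstream of the promoter, had 32 counts in APH against 25 in DMSO, and 19 in HU against 44 in H2O. Its HU ratio was -1.20 (-2.05 to -0.39), with APH at 0.028 (-0.77 to 0.84). The remaining loops of GRB2 had intervals that included 1 in both contrasts.

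RHOH, the haematopoietic gene of the 5, lies on chromosome 4 (40191080 to 40246967, plus strand). All 5 shared loops join its body to the adjoining bins chr4:40300001-40305000 and chr4:40305001-40310000, beyond the end of the gene, where no protein-coding gene of the RefSeq table lies. They summed to 259 counts in APH against 249 in DMSO, and 217 in HU against 279 in H2O. Because APH has more contacts in shared loops than DMSO, its level is the lower one after scaling, at 68.7 contacts per 100000 in APH against 82.9 in DMSO. In HU it was 67.4, against 85.7 in H2O. The log2 ratio with APH, -0.27 (-0.53 to -0.01), was the smallest in size among the 5 and its interval came closest to 1. With HU it was -0.35 (-0.61 to -0.09), and the vehicles differed by 0.05 (-0.20 to 0.30).

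Within RHOH, the loop from chr4:40200001-40205000 to chr4:40305001-40310000 had 58 counts in APH against 61 in DMSO, and 36 in HU against 60 in H2O, with a log2 ratio of -0.72 (-1.36 to -0.10) in HU over H2O. The loop with most counts, from chr4:40225001-40230000, had 64 counts in APH against 71 in DMSO, and 67 in HU against 77 in H2O. The loop from chr4:40205001-40210000 to chr4:40300001-40305000 gave -0.05 with APH and -0.04 with HU. This was the RHOH loop that did not have both drug libraries below both vehicles. The RHOH loops stood 2.03 to 4.42 times over the expected counts, against 16.0 to 21.8 times for the strongest STIM1 loop. HU alone listed loops to chr4:40305001-40310000 from chr4:40230001-40235000, with 39 counts, and from chr4:40245001-40250000, with 38. With all listed loops summed, HU had 334 counts over 8 loops against 395 over 7 in H2O, and APH had 306 over 7 against 317 over 7 in DMSO.

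RGL1, which links RAS to RAL, lies on chromosome 1 (183636109 to 183928532, plus strand), and both anchors of all 4 shared loops lie on it. The loops summed to 148 counts in APH against 178 in DMSO, and 126 in HU against 189 in H2O. The levels were 39.3 contacts per 100000 in APH against 59.3 in DMSO, and 39.1 in HU against 58.04 in H2O. The log2 ratios were -0.59 (-0.92 to -0.27) with APH and -0.57 (-0.91 to -0.24) with HU. The vehicles differed by -0.03 (-0.33 to 0.27). The drug libraries and the vehicles stood at separate levels here, as the plot of summed contacts shows. RGL1 was chosen by these same sums, so nothing is read from that separation.

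All 4 shared loops of RGL1 stood below 0 in both contrasts. The strongest, between chr1:183655001-183660000 and chr1:183915001-183920000, had 75 counts in APH against 84 in DMSO, and 52 in HU against 69 in H2O, and its interval excluded 1 with APH, at -0.49 (-0.96 to -0.02). The loop from chr1:183685001-183690000 to the same far anchor had 17 counts in APH against 30 in DMSO, and 24 in HU against 33 in H2O. With APH its log2 ratio was -1.15 (-2.10 to -0.24). The shortest, 70 kb between chr1:183840001-183845000 and chr1:183910001-183915000, had 30 counts in APH against 32 in DMSO, and 26 in HU against 56 in H2O. With HU it gave -1.09 (-1.82 to -0.40), and at this loop H2O also stood above DMSO, at 0.69 (0.04 to 1.36).

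Levels can be set against each other per length of gene, as contacts per 100000 per 100 kb of gene. In APH these were 123 for RHOH, 66.0 for GRB2, 17.6 for STIM1, 13.4 for RGL1 and 3.60 for CAMK1D. In DMSO they were 148, 87.4, 24.8, 20.3 and 5.48 in the same gene order. In HU they were 121, 57.1, 15.9, 13.4 and 4.03, and in H2O 153, 77.5, 23.7, 19.8 and 6.82. The order was the same in every library, and in each of them the Poisson intervals of STIM1 and RGL1 overlapped while those of other neighbours in the order did not.

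Loop by loop, the direction was shared by most of the 23 loops, but few were resolved singly. The genes were chosen by the sums of these same counts, so the shared direction largely follows from that choice. Several loops of a gene also share an anchor and are not independent of each other. The values below are a description, therefore, and nothing is read from them. With APH, 21 of 23 loops had a log2 ratio below 0, with a median of -0.48, whereas 52.7% of all shared loops were below 0, with a median of -0.02. With HU, 22 of 23 were below 0, with a median of -0.47, against 50.2% of all shared loops and a median of -0.01. For the vehicles, 13 of 23 were below 0, with a median of -0.14, and 1 interval lay above 1 and none below, beside 1.26% and 1.36% of all shared loops. The interval lay below 1 for 4 loops in APH over DMSO, where 2.74% of all shared loops did so, and for 5 in HU over H2O, where 3.45% did so. No loop of the 5 genes had an interval above 1 in either contrast, where 2.76% and 3.92% of all shared loops did. Both drug libraries lay below both vehicles at 19 of the 23 loops, against 22.2% of all shared loops. The exceptions were 3 loops of GRB2 and 1 of RHOH, and no loop had an interval below 1 in both contrasts, as the plot of single loops shows.

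**Figure D3:**
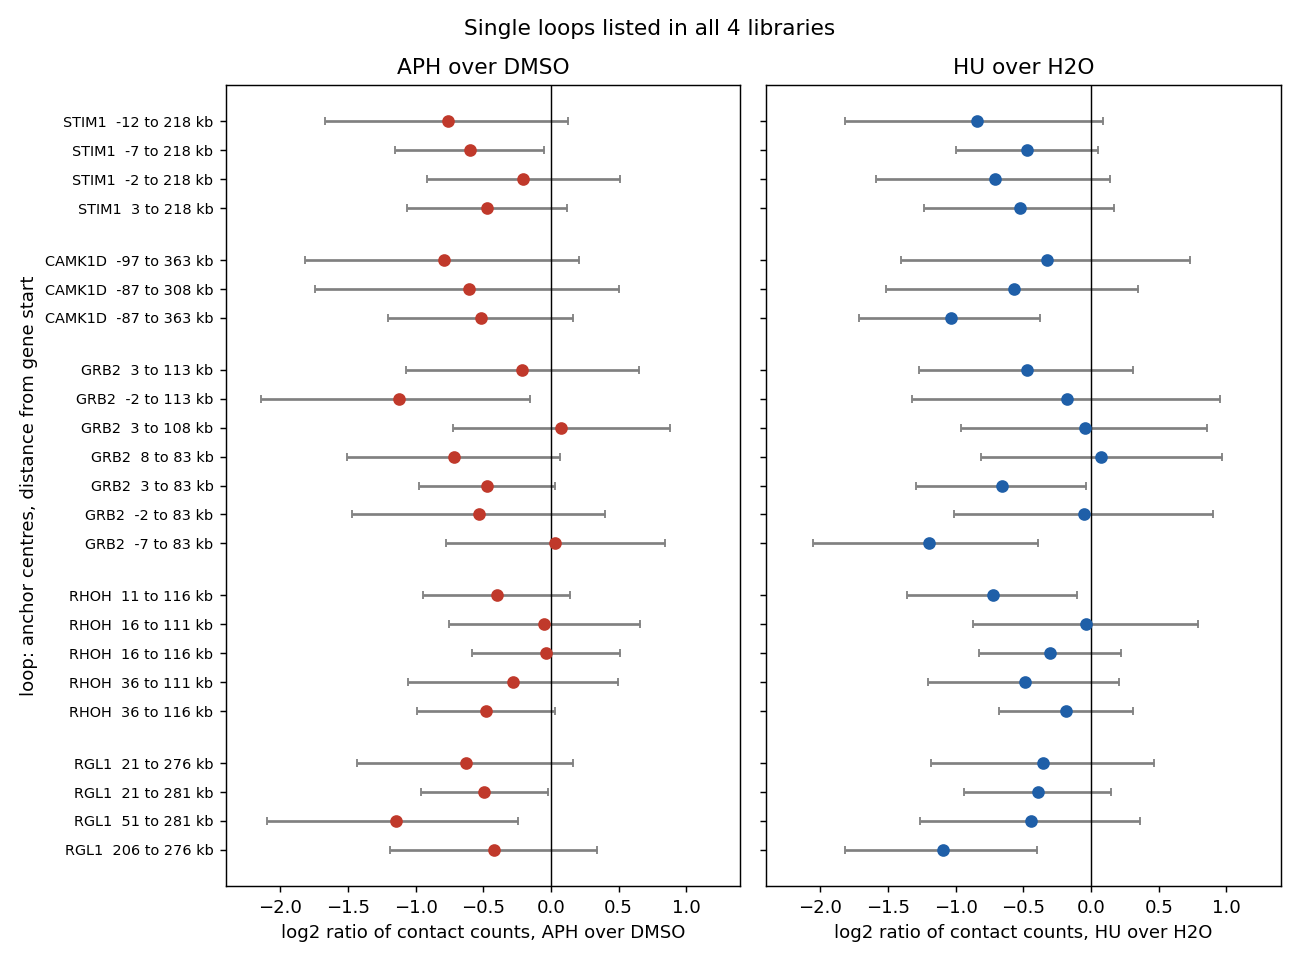
Log2 ratios of contact counts of the 23 shared loops, APH over DMSO on the left and HU over H2O on the right, with 95% exact intervals as bars. Each loop is named by its gene and by the distance of its anchor centres from the gene start in kb. In both panels nearly all points lie below 0 and most bars cross 0.

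Which loops were listed at all was counted as well. Listing rests on contact counts at the same places by which the genes were chosen. It is thus no separate view of them, and nothing is read from the shares below. The APH library listed 50 of the 83 loops, DMSO 47, HU 35 and H2O 52. Of all 41846 loops, APH listed 27395, DMSO 17660, HU 21448 and H2O 22446, so the lists differ in size. In all libraries but HU, 10 loops were listed, or 12.05% of the 83, whereas 3.52% of all 41846 loops had that pattern. Of these 10, GRB2 had 6, and STIM1 and RGL1 had 2 each. The GRB2 loop of this kind with most counts joined chr17:75295001-75300000 to chr17:75315001-75320000 over 20 kb, with 52 counts in APH, 44 in DMSO and 49 in H2O. Both RGL1 loops of this kind start at the bin of the internal promoter printed above, with 20 and 24 counts in APH, 27 and 27 in DMSO and 18 and 22 in H2O. No loop was listed in both drug libraries and neither vehicle, a pattern of 5.69% of all loops. A single loop, at STIM1, was listed in both vehicles and neither drug library, a pattern of 2.03% of all loops. In 1 library only, 41 of the 83 were listed, or 49.4%, against 45.8% of all loops.

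Loop length moved with the ratios over the whole study, so each gene was also set against loops of like span. Over all shared loops, those of 250 to 500 kb had a log2 ratio of -0.18 (-0.20 to -0.15) with APH and -0.13 (-0.15 to -0.11) with HU, and those under 100 kb had 0.08 in each. Relative to all shared loops of their span class, STIM1 stood at -0.46 with APH and -0.52 with HU, GRB2 at -0.44 and -0.47, RHOH at -0.29 and -0.36, and RGL1 at -0.49 and -0.52, with intervals that excluded 1. At GRB2 and RHOH these values were slightly further below 0 than the ratios to all shared loops, and at STIM1, RGL1 and CAMK1D they were nearer to 0. CAMK1D, with the longest loops, stood at -0.43 (-0.92 to 0.06) with APH and -0.63 (-1.11 to -0.17) with HU. Of all genes, 4.29% with APH and 8.36% with HU had an interval below 1 relative to span class.

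The surrounding region differed as well at some of the genes. Shared loops with an anchor within 1000 kb of RHOH and none on it numbered 14, and in HU over H2O they stood at -0.37 (-0.56 to -0.18), as low as RHOH itself. Relative to them, RHOH was at 0.020 (-0.24 to 0.28) with HU and at -0.20 (-0.46 to 0.05) with APH. The 21 loops near RGL1 stood at -0.32 (-0.45 to -0.19) with HU and -0.07 (-0.19 to 0.05) with APH, which left RGL1 at -0.25 (-0.58 to 0.08) with HU and -0.52 (-0.85 to -0.20) with APH. Around GRB2, 47 loops stood at 0.06 with APH and 0.08 with HU, and around CAMK1D, 15 loops stood at -0.15 and -0.14, all with intervals that included 1. Relative to these, CAMK1D was at -0.46 (-0.95 to 0.03) with APH and -0.62 (-1.09 to -0.16) with HU. Only 2 such loops surround STIM1, too few for a reference.

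The expected counts in the lists moved with the result at several genes. The summed count of RGL1 was 6.82 times the summed expected count in APH against 7.87 in DMSO, and 7.36 in HU against 7.31 in H2O. Its share of the expected counts was itself lower, at 36.8 per 100000 expected in APH against 46.9 in DMSO, and 32.9 in HU against 49.3 in H2O. At STIM1 it was 10.3 times in APH against 12.2 in DMSO, and 8.77 in HU against 10.47 in H2O. At CAMK1D it was 7.86 in APH against 10.2 in DMSO, and 8.75 in HU against 14.6 in H2O. At GRB2 it was 4.20 in APH against 5.05 in DMSO, and 3.44 in HU against 4.45 in H2O. At RHOH the figures were 2.76 in APH against 3.18 in DMSO, and 2.90 in HU against 3.19 in H2O. After division by the expected counts, the interval excluded 1 for 3 of the 10 ratios, GRB2 with APH and HU and CAMK1D with HU, and RGL1 with HU was at 0.013. No share of all genes is given for this division, so nothing is read from that count. The sources used here do not say how the expected counts were made. The plot of other references sets these values side by side.

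**Figure D4:**
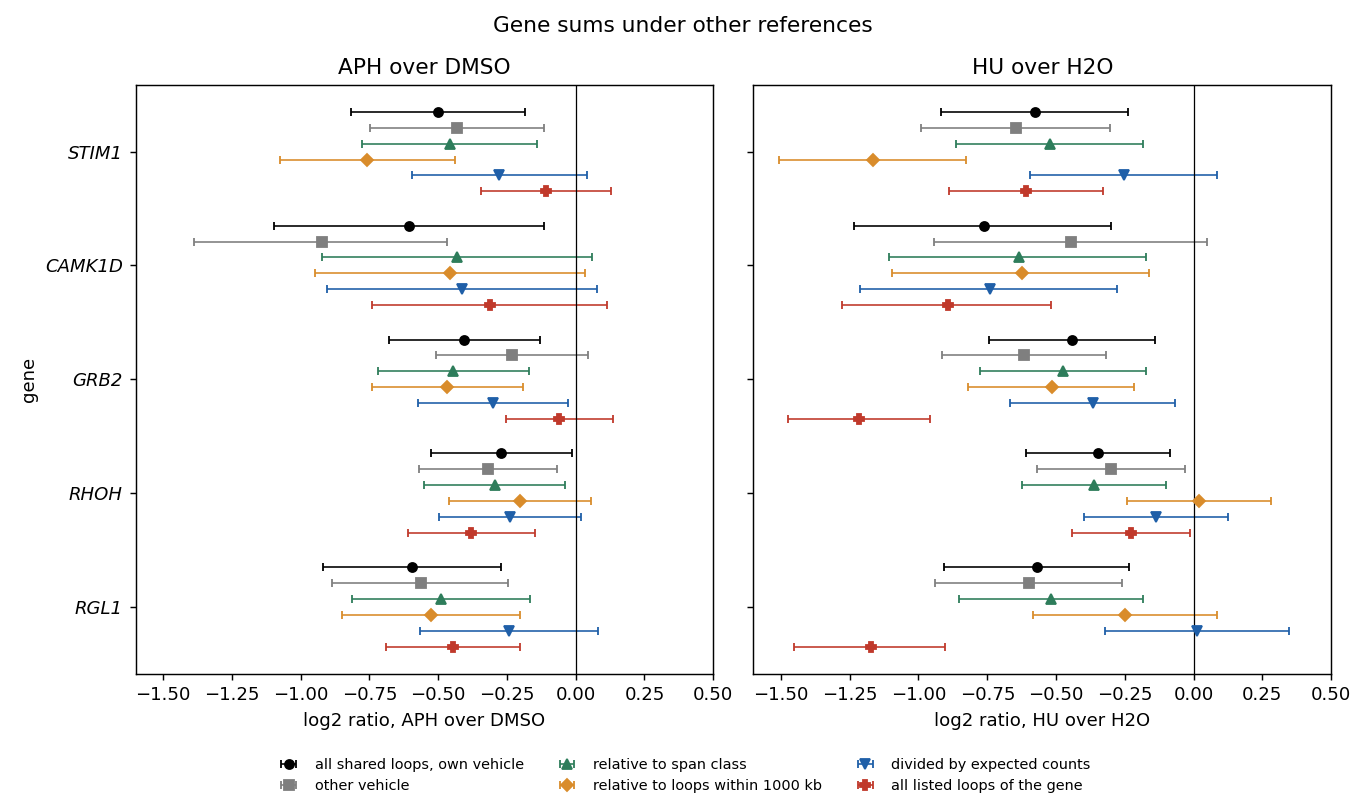
Log2 ratios of the summed counts of each gene, APH over DMSO on the left and HU over H2O on the right, under 6 ways of computing them, with 95% exact intervals as bars. Nearly all points lie below 0, with RHOH relative to loops within 1000 kb and RGL1 divided by expected counts just above it with HU. For all listed loops of a gene, a loop missing from a list adds nothing to the sum.

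The other genes of the same pathways were described from 5 lists arranged by role, 132 genes in all, of which 58 had a shared loop and 36 had enough counts in both drug contrasts. With APH, 5 of the 36 had an interval below 1, or 13.9%, beside the 5.16% of all genes, and 1 had an interval above 1, beside 4.76%. With HU, 6 were below, or 16.7%, beside 8.24% of all genes, and 0 were above, beside 8.28%. Between the vehicles 36 genes also had enough counts, but not all of them were the same genes. Of these, 2 were below, or 5.56%, beside 2.76% of 2387 genes, and 0 were above, beside 1.93%. Of the 36 genes of the drug contrasts, 9 were above 0 with APH and 10 with HU, where 48.8% and 48.4% of all genes were. Scaled by all listed loops these counts were 1 and 12, where 6.79% and 55.1% of all genes were above 0. With that scaling 27 of the 36 had an interval below 1 with APH, as did 48.2% of all genes. Relative to span class, 2 were below with APH and 4 with HU, beside 4.29% and 8.36% of all genes. The plot of both contrasts places the 5 genes and these related genes among all others.

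**Figure D5:**
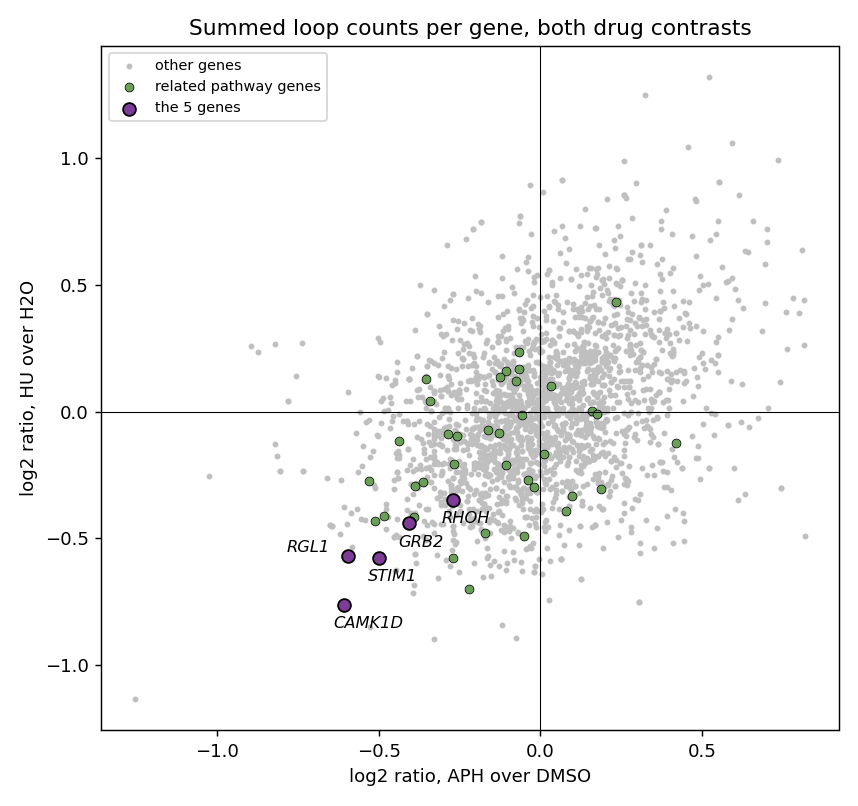
Log2 ratio of summed loop counts per gene, APH over DMSO on the horizontal axis and HU over H2O on the vertical axis, for the 2380 genes with at least 100 counts in each contrast. Purple points are the 5 genes, chosen for lying in the lower left, green points are related pathway genes and grey points are all other genes. The 5 genes run from -0.27 and -0.35 at RHOH to -0.61 and -0.76 at CAMK1D.

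Among 5 genes of calcium entry and release with enough counts, none had an interval that excluded 1 with APH and the median was -0.06. There ITPR1, a calcium release channel of the store, was lowest at -0.17 and PLCG1, the phospholipase that makes its ligand, highest at 0.16. With HU the median was 0.10, and ITPR1 stood at -0.48 (-0.72 to -0.24), from 250 counts in HU and 352 in H2O. ATP2B4, a calcium pump of the plasma membrane, was highest with HU at 0.24 (-0.09 to 0.56). The medians of all genes were -0.01 in both contrasts.

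The list of calmodulin, calcineurin, NFAT and calmodulin kinases also had 5 such genes, with medians of -0.07 with APH and -0.09 with HU. CAMK4, another calmodulin-activated kinase, had 87 counts in APH against 100 in DMSO, which gave -0.53 (-0.96 to -0.10). CALM3, a calmodulin gene, went the other way on 1 loop, at 0.42 (0.04 to 0.80) from 156 counts in APH and 93 in DMSO. With HU no interval excluded 1, between CAMK4 at -0.27 and RCAN1, a calcineurin regulator, at 0.17.

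Of 10 antigen receptor kinases and adaptors, the medians were -0.12 with APH and -0.27 with HU. FYN, a SRC family kinase, was lowest with HU at -0.70 (-0.96 to -0.43), from 192 counts in HU and 315 in H2O, and PIK3R1, the regulatory subunit of phosphoinositide 3-kinase, was at -0.39 (-0.77 to -0.02). GAB2, a docking protein, was highest with HU at 0.04. With APH the exchange factor VAV1 was lowest at -0.51 (-1.08 to 0.05), VAV3 was the gene with an interval below 1 at -0.36 (-0.69 to -0.04), and CBL, a ubiquitin ligase, was highest at 0.10.

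The 9 genes of RAS, its exchange factors and RAL had medians of -0.16 with APH and -0.21 with HU. RASGRP1, a RAS exchange factor of lymphocytes, had 247 counts in APH against 237 in DMSO, a scaled log2 ratio of -0.27 whose interval just excluded 1. RALGPS2, a RAL exchange factor, was lowest with APH at -0.48 (-1.001 to 0.03). With HU, RAPGEF1, an exchange factor for RAP proteins, was lowest at -0.58 (-1.12 to -0.05) and RALGPS1 was at -0.49 (-0.86 to -0.12). RRAS2 was highest in both, at 0.23 with APH and 0.43 with HU, with intervals that included 1.

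The 7 genes of small GTPases of the cytoskeleton and their regulators had medians of -0.35 with APH and -0.11 with HU. RHOC was the one related gene with an interval below 1 in both contrasts, at -0.39 (-0.77 to -0.01) with APH and -0.41 (-0.81 to -0.03) with HU. RHOB was lowest with APH at -0.44, with 89 counts in APH against 96 in DMSO. The exchange factor gene ARHGEF6 was highest with APH at 0.19, and RHOF was highest with HU at 0.16.

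The pool for a search of similar patterns was the 2380 genes with at least 100 counts in each drug contrast. Genes that share a loop with the gene compared were left out. Genes with the most similar pattern were those with the smallest Euclidean distance between centred log2 levels over the 4 libraries. For STIM1 these were MEF2A, a transcription factor gene, SNX29 and IQCH, at distances of 0.0737 to 0.0872. For CAMK1D they were AP4S1 and STRN3, which have the same loops, and FAM3C, at 0.230 to 0.241. For GRB2 they included ZPBP2 and ZDHHC17, at 0.0423 and 0.0532, and for RHOH they were PCDHGA12, BOC and TOX2, at 0.0165 to 0.0338. For RGL1 they were CCIN and RECK, with equal counts, and then STIM1 at 0.112. With 4 libraries such distances describe likeness of levels and nothing more.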

How the data were processed

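Per the labels' protocols, cells were cross-linked with formaldehyde and EGS, and SMC1 was precipitated within a kit workflow for HiChIP. Per the submitters' processing notes, bcl2fastq 2.17, MACS3 3.0.1 and the build hg38 were used. The names of the aligner, the loop caller and any call filter were not given in the sources used here.

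Loops came as 1 list per library, deposited by the authors with no header, so columns were read from their values. The deposited counts are whole, not normalized and 12 or higher, for pairs of 5 kb bins 10 to 1000 kb apart. A deposited column of other, non-whole numbers is taken as the expected count, and every listed loop has at least 2.00 times as many contacts. Another deposited column, read as an adjusted p-value, stays below 0.01 for every loop. Other columns were not used.

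Genes came from a RefSeq table (GRCh38.p14) with 19970 protein-coding genes, and strands from its promoter table. Counts of shared loops were summed per gene and scaled by each library's total over shared loops. A loop with anchors on several genes counted for each of them. Ratios have 95% exact conditional binomial intervals and levels 95% exact Poisson intervals. With 1 library per group no p-value was computed. Genes with at least 100 counts in 2 libraries together form the background. The neighbouring loops of a gene are shared loops with an anchor within 1000 kb of it and none on it, and ratios relative to them or to a span class leave out the counting error of that reference.

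The members and the lists were chosen with earlier results of these data known. The text names the 5 genes, genes at far anchors, the highest and lowest gene of each list per contrast and the 3 genes of most similar pattern, of which 1 is not reported here. VAV3, PIK3R1, RASGRP1, RALGPS1 and RHOC fall outside this rule in at least 1 contrast and were named after their values were seen. Alternatives changed the scaling, the vehicle, the loops counted, the minimum of counts and the reference. The ratio step was tested on simulated data. Python 3.11.15, numpy 2.4.6, pandas 2.3.3, scipy 1.17.1 and matplotlib 3.10.9 were used.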

Additional observations from a re-analysis of the deposited data

Results flagged for a closer look

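At 3 loops of GRB2 the drug contrasts pointed opposite ways, though each contrast compares 1 library with 1 library and the difference between the contrasts was not tested. The loop from 75320001 to 75415000 on chromosome 17 had 32 counts in APH against 25 in DMSO, and 19 in HU against 44 in H2O, with log2 ratios of 0.028 and -1.20. H2O stood at 0.70 (-0.04 to 1.47) over DMSO there. The loop from 75320001 to 75400000 had 26 counts in APH against 34 in DMSO, and 24 in HU against 23 in H2O, with log2 ratios of -0.71 and 0.077. The loop from 75295001 to 75405000 had log2 ratios of 0.073 with APH and -0.048 with HU, and both intervals included 1.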

How the results depend on the processing

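Under 11 alternatives the summed log2 ratios of the 5 genes kept their sign except for RGL1 with HU at 0.013 after division by expected counts and RHOH with HU at 0.020 relative to loops within 1000 kb, a reference added after the data were seen. Relative to those loops STIM1 with HU was at -1.16, over only 2 loops. Division by expected counts put RGL1 with APH at -0.24. Scaled by all listed loops, APH values were -0.88 for STIM1, -0.98 for CAMK1D, -0.78 for GRB2, -0.65 for RHOH and -0.97 for RGL1. With all listed loops of a gene summed, STIM1 with APH was at -0.11, GRB2 at -0.059 with APH and -1.21 with HU, and RGL1 with HU at -1.17. A loop missing from a list adds nothing to these sums, so the number of listed loops enters the ratio. GRB2 had 8 listed loops in HU against 16 in H2O, and RGL1 had 6 against 12. Over loops listed in both libraries, GRB2 with HU was at -0.44 and RGL1 with HU at -0.53. The setting of loops at gene ends took shared loops with an anchor within 5 kb of either end of the gene, on the gene or not. With it RHOH with HU was at -0.80, from 1 loop with 41 counts in HU against 72 in H2O. That loop is not among the listed loops of RHOH. GRB2 had 9 loops in this setting against its 7 shared loops, and CAMK1D and RGL1 had none. With anchors matched within 1 bin, GRB2 with HU was at -0.84 and RGL1 with APH at -0.95, and missing loops again added nothing. Of 10 intervals, 10 excluded 1 when scaled by all listed loops and with anchors within 1 bin, 9 relative to span class and for loops listed in both libraries, and 8 with the other vehicle and with at least 24 counts. It was 7 without the loop with most counts and with all listed loops of a gene, 6 relative to loops within 1000 kb, 3 after division by expected counts, and 5 of 6 for loops at gene ends. The genes were chosen by these sums, so nothing is read from these counts. Of all genes, 48.2% with APH and 5.38% with HU had an interval below 1 when scaled by all listed loops. The shares were 4.29% and 8.36% relative to span class, and 6.73% and 7.02% with the other vehicle. For the remaining settings no share of all genes is given. Of 36 related genes, 27 were below with APH when scaled by all listed loops, where 48.2% of all genes were, and 2 relative to span class, in place of 5, and 0 were above with these settings and with the other vehicle, in place of 1. Among 46 ratios of single loops, 44, 44 and 42 were below 0 when scaled by all listed loops, with the other vehicle and relative to span class. The cause of these shifts was not tested. No paired analysis was possible because each group holds 1 library. Shared loops of 14 to 84 counts leave wide intervals, so most single loops were not resolved at this depth.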
